A study of Drosophila melanogaster with 3 samples.

Results

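The regions described here are the 2032 ChIP-seq peaks of the tagged Drosophila melanogaster protein CG15601 whose summit, the position of highest signal, lay within 500 bp of annotated start sites of protein-coding transcripts on one strand only. They were 31.5% of the 6458 peaks of the authors' optimal IDR list (exact 95% interval 30.3 to 32.6%). IDR stands for irreproducible discovery rate, a measure of how well peak ranks are reproduced between lists. Not every IDR peak was matched in every replicate list, as given below. The other IDR peaks were 1060 whose window held coding start sites on both strands, called divergent promoter peaks here, and 3366 with no coding start site within 500 bp. The rule used positions only. It did not use the signal or the sequence of a peak, but it fixed the range of distances from the start site and left out summits near opposed start sites, which bears on which genes can be members.

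The series has 1 group of 3 biological replicates. Each replicate was whole embryos of both sexes aged 0 to 14 h, from a transgenic line that stably makes CG15601 fused at its C-terminus to green fluorescent protein (GFP). Chromatin was sheared by sonication to 200 to 800 bp and precipitated through the GFP tag. All samples therefore carry the same tag, there is no untagged group among them, and a whole embryo gives an average over all its cell types. With 3 replicates an exact sign-flip permutation test over replicates cannot give a two-sided p below 0.25.

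A gene's promoter is the stretch around its start site where general transcription factors place RNA polymerase, and factors bound just upstream set how often it fires. In flies, promoters of housekeeping genes often carry the DRE, the site of the factor Dref, or the Ohler motif 1, the site of M1BP, while many promoters of developmentally regulated genes carry a TATA box, an initiator or GAGA sites. The rule used here leaves out summits with opposed coding start sites within 500 bp, but not those near or inside another gene in other arrangements. Of 1941 one-strand promoters with a member, 240 (12.4%) lay inside another coding gene. In 1026 the upstream neighbour pointed the same way, and 46.4% of these had it under 500 bp away.

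Sequences of 6 of the 7 strongest peaks, and an example for each of the housekeeping elements, show the sequence at these summits. Each is 101 bases of the dm6 genome (RefSeq copy of release 6) centred on the summit and read 5′ to 3′ on the gene's strand. In the first 6, capitals mark ATTGAA or GTTGAA on either strand (so also TTCAAT or TTCAAC).
CG46339 (chr3R:26915728-26915828, plus strand, rank 2 of the IDR list): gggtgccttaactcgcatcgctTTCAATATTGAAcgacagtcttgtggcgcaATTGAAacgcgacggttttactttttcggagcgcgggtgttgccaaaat
MFS3 (chr2L:1142810-1142910, plus strand, rank 3): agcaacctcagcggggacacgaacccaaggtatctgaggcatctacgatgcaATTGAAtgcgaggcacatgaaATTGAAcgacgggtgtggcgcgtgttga
Nuak (chr3R:10263999-10264099, plus strand, rank 4): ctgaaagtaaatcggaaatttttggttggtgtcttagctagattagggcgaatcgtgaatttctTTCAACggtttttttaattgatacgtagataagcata
btsz (chr3R:14853892-14853992, minus strand, rank 5): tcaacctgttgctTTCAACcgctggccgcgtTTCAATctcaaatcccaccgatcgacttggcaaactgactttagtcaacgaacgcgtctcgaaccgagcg
Socs16D (chrX:17827427-17827527, minus strand, rank 8): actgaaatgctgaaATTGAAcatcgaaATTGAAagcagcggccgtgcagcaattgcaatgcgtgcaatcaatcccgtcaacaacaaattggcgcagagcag
CG14100 (chr3L:19590559-19590659, minus strand, rank 10): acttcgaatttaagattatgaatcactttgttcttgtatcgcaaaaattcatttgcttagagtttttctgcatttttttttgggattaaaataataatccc
In the next, capitals mark the DRE, and in the last the Ohler motif 1 core, at the strongest one-strand promoter peak that holds each.
eEF1gamma (chr3R:29220086-29220186, plus strand, rank 544): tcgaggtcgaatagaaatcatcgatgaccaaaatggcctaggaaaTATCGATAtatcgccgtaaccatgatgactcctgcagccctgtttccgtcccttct
RpL30 (chr2L:19009263-19009363, minus strand, rank 373): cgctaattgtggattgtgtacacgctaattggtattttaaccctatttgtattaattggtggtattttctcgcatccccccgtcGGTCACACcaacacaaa

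The 20 strongest one-strand promoter peaks had IDR ranks 2 to 32, and each was found in every replicate list, at ranks 1 to 67 in replicate 1, 2 to 36 in replicate 2 and 2 to 30 in replicate 3. Signal here is the value the authors' peak caller gave each peak and has no scale shared between lists, so lists are compared by rank. The strongest peak lay at 17 bp from the start of CG46339 (positive is downstream, negative upstream), with a signal of 22067 and ranks 4, 4 and 3 in replicates 1, 2 and 3. The next, at -341 bp from the start of MFS3, a gene named for the major facilitator family of membrane transporters, had a signal of 21632 and ranks 3, 6 and 2. Then came Nuak, which encodes a kinase related to AMPK, with a signal of 21436 at -257 bp and ranks 1, 5 and 6. The peak at -23 bp from btsz, which encodes a synaptotagmin-like protein of epithelia, had a signal of 21144 and ranks 5, 3 and 5. The peak at -168 bp from shn, the zinc finger cofactor of Dpp signalling, had a signal of 21140 and ranks 9, 2 and 4. Socs16D, of the family of cytokine signalling suppressors, followed with 16576 at 43 bp and ranks 8, 7 and 8. These 6 places were in the first 9 of every replicate list.

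The signal then fell steeply within the same set. CG14100 had 10365, Lapsyn, a leucine-rich repeat protein of synapses, had 10116, and Con, the cell adhesion protein Connectin, had 9752. Reph had 8749 and CG17075 had 8731. The last of the 20 were CG15646 at 7818, CG10254 at 6002, CG12708 at 5936, CG31676 at 5210, CG43373 at 5161, Cep135, which encodes a centriole protein, at 4966, dnr1, a repressor of the Imd pathway, at 4659, and smal at 4648. Of the 20, Lapsyn and Reph were matched by an overlap of at least 50% of both peaks in 2 of 3 replicate lists and the other 18 in all 3. CG15646 and CG12708 are neighbours on the X chromosome, with summits at positions 15671287 and 15675425. The named kinds of gene among them, a transporter, kinase, adhesion, signalling and centriole genes, share no single family.

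**Figure D1:**
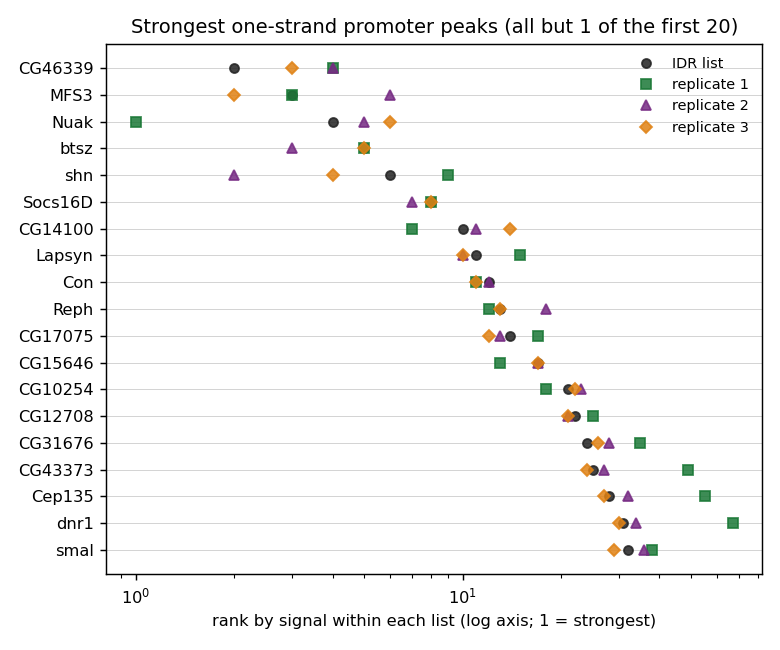
Rank by signal of the strongest one-strand promoter peaks, all but 1 of the first 20, in the IDR list and in each replicate list (log axis, 1 is the strongest). On the log axis the spread is wider for Nuak and shn, near the top, than for dnr1 in the lower part. By rank, dnr1 lies at 67 in replicate 1 and 30 in replicate 3.

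The words ATTGAA and GTTGAA were picked after the sequences of these 20 peaks had been seen, so their frequency there is a description. Within 50 bp of the summit, 17 of the 20 (85%) held at least 1 copy and 13 (65%) held 2 or more, with up to 4 copies at CG31676. CG14100, CG15646 and CG12708 held none. Within 100 bp all 20 held at least 1 copy and 18 (90%) held 2 or more, against 38% and 9% of the other 2012 members and 29% and 5.49% of one-strand promoters without an IDR summit. The peaks not used to pick the words give the comparison. Of the 8 further one-strand peaks up to IDR rank 50, 5 (62.5%, exact 95% interval 24.5 to 91.5%) held a copy within 50 bp. Of the 51 with ranks 51 to 200, 10 (19.6%, 9.82 to 33.1%) did, and so did 84 of the 265 with ranks 201 to 1000 (31.7%) and 352 of the 1688 beyond (20.9%). One-strand promoters without an IDR summit, read in a window of the same length centred at the members' median offset of -101 bp, held it in 1703 of 11066 cases (15.4%). The interval of the 8 further peaks includes the 31.7% of ranks 201 to 1000 and lies above the 20.9% beyond rank 1000. It overlaps the interval of ranks 51 to 200, and 8 peaks are few.

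Strong peaks of the other classes were counted in the same way. Of the 16 peaks away from coding starts with ranks up to 50, 8 (50%) held a copy within 50 bp, with 33.3% of those ranked 51 to 200, 26.5% of those ranked 201 to 1000 and 669 of 2892 (23.1%) beyond. Of the 6 divergent promoter peaks with ranks up to 50, 4 (66.7%) did, with 30%, 21.2% and 20.7% in the later bands. The groups of 16 and 6 are small, with intervals of 24.7 to 75.3% and 22.3 to 95.7%, and no test between bands or classes was made. In the replicate lists, 13, 16 and 17 of the 20 strongest one-strand peaks of replicates 1, 2 and 3 held a copy. The 20 peaks that gave the words ranked within the first 67, 36 and 30 of these lists. These counts are therefore not independent of them. The same bases in reverse order, AAGTTA or AAGTTG, were found in 2 of the 20 strongest (10%) and in 300 of the other 2012 (14.9%). GC content in these 20 windows ranged from 19.8% at CG15646 to 58.4% at CG12708 and smal. Another word picked from the same 20 peaks, TTGAAAG, which shares TTGAA with the others, was in 9 of the 20 (45%), in 84 of the other 2012 (4.17%) and in 2.71% of the promoters without a summit. Copies were also counted from 300 bp before to 50 bp after the start of one-strand promoters, with the 20 strongest left out. A summit was held by 14.2% of the 6950 promoters with no copy, 15% of the 1526 with 2 copies and 13.4% of the 359 with 3. With 4 or more copies it was 23.6% of 89 (15.2 to 33.8%), an interval above 14.2%. Of all 13198 one-strand promoters, 14.7% held a summit.

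Summits lay mostly upstream of the start site. Their median offset was -101 bp on the gene's strand, with quartiles of -217 and -14.8 bp. The summit was upstream in 1592 of 2032 cases (78.3%, exact 95% interval 76.5 to 80.1%). In the strongest 6458 peaks of each replicate list, the same rule gave 1770, 2081 and 2229 one-strand promoter peaks in replicates 1, 2 and 3, with median offsets of -150, -100 and -83 bp and upstream shares of 83.1%, 74.9% and 77.3% (mean 78.4% ± 4.18, SD, n = 3). Replicate 1 was the most upstream of the 3 and gave the fewest members. The densest 50 bp bin was 100 to 50 bp upstream, with 296 summits (14.6%), and the next was the last 50 bp before the start, with 277 (13.6%). Beyond 100 bp downstream there were 168 (8.27%). At the limits of the rule, CG43736 at -500 bp (signal 1262), CG9184 at -498 bp (855) and CG5854 at 497 bp (382) were just inside, while bark at -501 bp (744), Cyp310a1 at -502 bp (635) and CG33725 at 502 bp (308) were just outside.

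**Figure D2:**
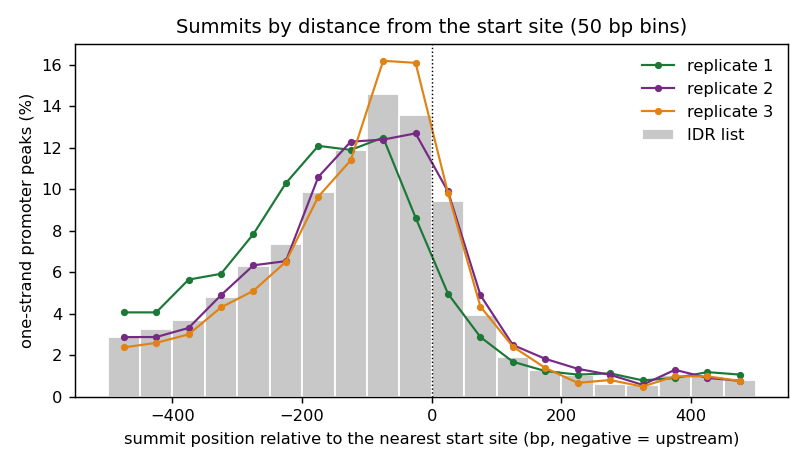
Share of one-strand promoter peaks in 50 bp bins of summit position relative to the nearest coding start site, for the IDR list (bars) and the strongest 6458 peaks of each replicate list (lines). All lists peak within 150 bp upstream, and replicate 1 has more of its summits far upstream and fewer within 100 bp.

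The position was stable where a peak was found again. For the 838 peaks matched in all 3 replicate lists, the summits of the 3 lists spanned a median of 47 bp (median SD 24.4 bp, n = 3), and for 758 (90.5%) all 3 lay on the same side of the start site, 665 of them upstream. Among the 559 of the 838 over 100 bp from the start, the side was the same in 99.5%, which the overlap rule and the distance themselves make likely. For the 838 peaks the median offsets in replicates 1, 2 and 3 were -142, -141 and -136 bp. The difference in median offset between the whole replicate lists was not seen at these places, which were kept by the overlap.

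Offset and strength moved together. Members were split by signal into quintiles of 406 or 407 peaks. In the strongest quintile (signals of 575.3 and above) the median offset was -180 bp, 84.5% of summits were upstream and 22.6% lay within 100 bp of a start site. Through the next quintiles the median moved to -128, -90, -68 and -57.5 bp. In the weakest quintile 70.4% were upstream and 55.9% lay within 100 bp. In the replicate lists the ends of the range lay in the same order, while quintiles 3 and 4 of replicate 2 (-74.5 and -75 bp) and 4 and 5 of replicate 3 (both -53 bp) hardly differed. The median went from -193 bp in the strongest to -110 bp in the weakest quintile of replicate 1, from -170 to -63.5 bp in replicate 2 and from -152 to -53 bp in replicate 3. By place rather than by strength, the 426 summits 251 to 500 bp upstream had a median signal of 362 and the 593 at 101 to 250 bp had 357. The 573 summits in the last 100 bp before the start had 270, and the 272 in the 100 bp from the start onwards had 247. The 168 summits 101 to 500 bp downstream had 305, above both of these.

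Peak width moved with strength as well. Of the members, 1150 (56.6%) had the list's commonest width of 430 bp, and 1147 of these had the summit at the centre. That width was found in 0.737% of the strongest quintile and 95.6% of the weakest. Within peaks of other widths the median offset went from -180 bp in the strongest quintile through -144, -126 and -102 to -61.5 bp in the weakest. Few such peaks were left in the weakest, where 388 of 406 had 430 bp. Within peaks of 430 bp the median went from -108 bp in the second to -57.5 bp in the weakest quintile. The 3 of that width in the strongest quintile had a median of -19 bp. This split was made after the data were seen.

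**Figure D3:**
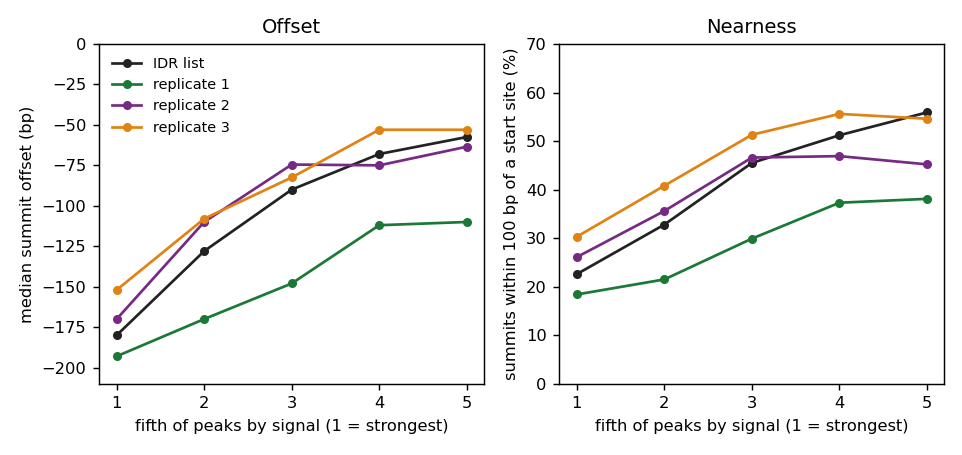
Median summit offset (left) and share of summits within 100 bp of a coding start site (right) in quintiles of one-strand promoter peaks by signal, for the IDR list and the strongest 6458 peaks of each replicate list. All 4 lists move toward the start site from the strongest to the weakest quintile, from -180 to -57.5 bp in the IDR list.

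Divergent promoter peaks differed from these in place and strength. Their median offset was -86 bp, 98.1% lay within 250 bp of a start site against 75% of the one-strand peaks, and 55.2% lay within 100 bp against 41.6%. The nearest of 2 opposed starts is closer by construction, and a summit between starts that point apart is upstream of both. The class takes opposed starts in any arrangement, and 196 of the 1060 summits lay downstream of the nearest start. Over the replicates, the share within 100 bp was 38.5% ± 8.84 (SD, n = 3) for one-strand and 55.7% ± 7.17 for divergent promoter peaks. The difference of -17.1 points ± 1.87 was negative in 3 of 3 replicates (exact sign-flip permutation test, two-sided p = 0.25, the smallest it can give). The upstream share differed by -1.52, -6.21 and -2.61 points in replicates 1, 2 and 3 (mean -3.45 ± 2.46, exact p = 0.25), and by -8.15 in the mean when all peaks of each replicate list were used. The median rank percentile, where a higher value is weaker, was 50.7 ± 2.05 for one-strand and 42.7 ± 4.99 for divergent promoter peaks, a difference of 7.95 ± 3.12 with the same sign in 3 of 3 replicates (exact p = 0.25). Against peaks away from coding starts it was -5.61, 2.35 and 0.186 in replicates 1, 2 and 3, which does not keep one sign (exact p = 1).

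The signals of one-strand promoter peaks were widely spread. The median signal in the IDR list was 303 for one-strand, 340 for divergent and 304 for other peaks, with quartiles of 227 and 489.7 for one-strand peaks. Of the 100 strongest IDR peaks 50 were at one-strand promoters, 16 at divergent promoters and 34 away from coding starts, and of the 500 strongest 174, 90 and 236 were. The 99th percentile of the signal was 4316 for one-strand, 2556 for divergent and 2176 for other peaks. The ratio of the one-strand to the divergent median, 0.891, turned above 1 in the stronger 50% of the IDR peaks (1.03) and among peaks matched in the other lists when replicate 2 or 3 was left out (1.02 and 1.04). The strongest member had 72.7 times the median signal of the class, the strongest divergent promoter peak 25 times its own, and the strongest peak of the list, away from coding starts with a signal of 31486, 103 times its own.

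The strongest peaks were also the ones found again. Among the strongest 6458 peaks of each replicate list, 57.5%, 72.5% and 76.2% of the members were matched in replicates 1, 2 and 3, 838 (41.2%, 39.1 to 43.4%) in all 3 and 174 (8.56%) in none. From the strongest to the weakest quintile, the share found in all 3 fell from 81.8% through 52.5%, 44% and 24.4% to 3.45%. The share depends on the overlap asked for and on how many peaks of each replicate list are used. The IDR list was derived from the same 3 replicates, so strength and recovery are not independent. Counted by any overlap with the whole replicate lists of 30000 peaks, which changes both, 99.5% of the strongest and 81.8% of the weakest quintile were in all 3. By that count 0 members were in none (an alternative added after the data were seen). The shares differed less between classes. Of a replicate's one-strand promoter peaks, 45.9% ± 5.71 (SD, n = 3) were matched in both other replicates, against 52.8% ± 5.59 of divergent promoter peaks, a difference of -6.81 points ± 0.902 that was negative in 3 of 3 replicates (exact p = 0.25).

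The members belonged to 1810 of 13945 protein-coding genes (13%). Replicate lists gave 1573, 1812 and 1989 genes in replicates 1, 2 and 3, and held 71.9%, 84.9% and 90.1% of the 1810. Most summits had 1 coding start site in reach (1678, 82.6%), 57 were near 2 genes, and 116 (5.71%) had a start site of a non-coding gene on the opposite strand within 500 bp. The arms held 408 on 2L, 418 on 2R, 412 on 3L, 458 on 3R and 321 on X. On the small chromosome 4 they were 15 of its 27 IDR peaks (55.6%, 35.3 to 74.5%), and 57.9%, 52% and 57.1% in the 3 replicate lists. The tagged gene CG15601 itself has an IDR summit 48 bp from its start (rank 2366), but in a window with starts on both strands.

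Member genes were longer in the median than other coding genes, and more of them had several promoters. The median length of member genes was 4926 bp, and 5476, 5378 and 4604 bp in the replicate lists. It was 2339 bp for the 1918 genes with an IDR summit at a divergent promoter only, and 2166 bp for all coding genes. The 8421 genes that have a one-strand promoter and no IDR summit at any promoter had 1940 bp. Genes known only by a CG number were 29.2% of member genes and 50.9% of those without a summit. They were 30.6% of the genes with a divergent summit only. Start sites of a gene over 500 bp apart were counted as separate promoters. Most member genes, 1130, had 1, and 680 (37.6%) had more, against 15.1% of all coding genes and 13.9% of the genes bound at divergent promoters only. The share of genes with a member rose from 9.54% of the 11839 genes with 1 promoter to 26.7%, 39.1%, 48.3% and 55.6% with 2, 3, 4 and 5, and to 68.8% of the 48 genes with 6 or more. A gene with more promoters has more places to be counted at, and that was not separated from other differences.

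Among the 680 genes with a choice, 545 held members at 1 promoter and 135 (19.9%) at several. In replicates 1, 2 and 3 the share bound at several was 14.9%, 18.7% and 20.8%, and it was 10.9 to 12.9% when each replicate was left out and peaks had to be matched in both other lists. Where 1 promoter was bound it was the most upstream in 272 genes (49.9%), the most downstream in 172 (31.6%) and one between in 101, and the replicate lists gave 45.7%, 47.7% and 50.2% for the most upstream. Equal use of all promoters would give 42.2%. For the 347 genes with 2 promoters and 1 bound, it was the upstream one in 208 (59.9%), and 58%, 57.2% and 58.7% in the replicate lists. The other promoters of these 545 genes numbered 893, and 69 of them (7.73%) held an IDR summit of another class. Where several promoters were bound, the strongest had 1.97 times the signal of the weakest in the median (135 genes, quartiles 1.43 and 3.27). Such a ratio cannot fall below 1, and it was not compared with that of members of different genes. The strongest was the most upstream of the bound ones in 50 (37%). Of the 135 genes, 118 had 2 bound promoters. The share that equal use would give here was not computed, and the 42.2% is for genes bound at 1 promoter.

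The genes with the most bound promoters show how this looks at single loci. Rtnl1 (chr2L:4992808-5009720, minus strand), which encodes a reticulon of the endoplasmic reticulum, held members at 5 of its 7 promoters. Counted from the most upstream, their signals were 283 at the first, 744 at the third, 543 at the fourth, 284 at the fifth and 1775 at promoter number 6, the last ranking 118, 186 and 151 in replicates 1, 2 and 3. Ptpmeg2, a tyrosine phosphatase gene on the X chromosome, held 5 of 6, with signals of 260, 1019, 220, 934 and 1094 in that order. mtd on 3R held 4 of 9, from 185 at the second to 2290 at the fourth, and SNF4Agamma, which encodes the gamma subunit of AMPK, held 4 of 9, from 223 to 752. Svil, the supervillin gene, held 4 of 16 with signals of 216 to 407. Some of the weaker members were not among the strongest 6458 peaks of every replicate list. In replicate 1 the first of Rtnl1 had no overlapping peak, the first of Ptpmeg2 ranked 8883 and the second of mtd 11724. The signal of 185 at mtd is near the lowest of the IDR list, 182.

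There were 12 genes with 3, and those with the highest signals are given here. RapGAP1, which encodes a GTPase activator for Rap1, had 744, 202 and 1959, and larp, which encodes a La-related RNA-binding protein, had 324, 530 and 1724. Gdap2 had 224, 251 and 1055, Lmpt, a LIM domain gene, had 237, 343 and 923, and Moe, the moesin gene, had 708, 299 and 435. In RapGAP1, larp, Gdap2 and Lmpt the most downstream of the bound promoters was the strongest, and in Moe the most upstream. At these 10 genes the strongest bound promoter had between 1.88 and 12.4 times the signal of the weakest. The 12.4 is that of mtd, whose weakest member ranked 11724 in replicate 1. The weakest member of Gdap2 ranked 13598 in replicate 1, and that of Lmpt had no overlapping peak there.

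**Figure D4:**
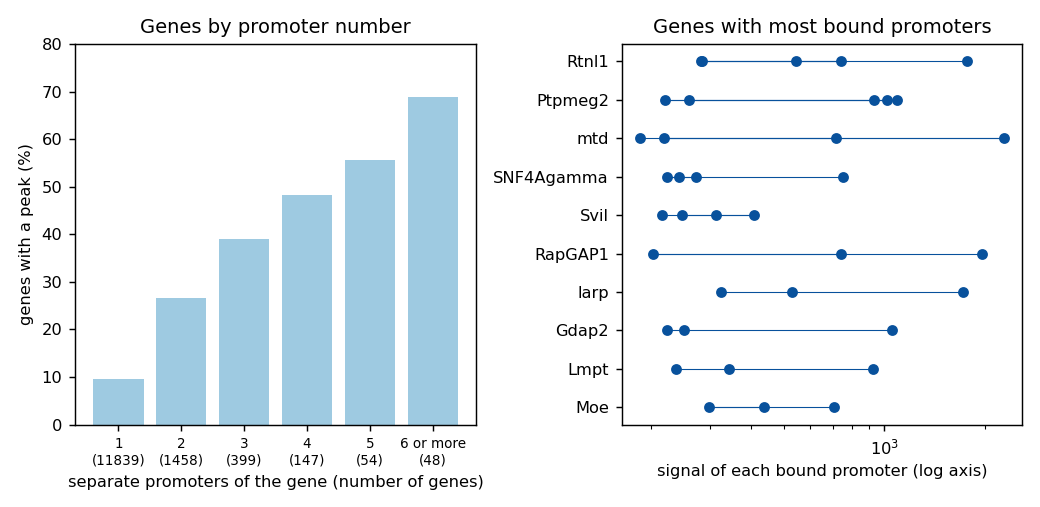
Left, share of protein-coding genes with a one-strand promoter peak by the number of separate promoters of the gene, from 9.54% with 1 promoter to 68.8% with 6 or more. Right, signal of each bound promoter (log axis) in the 10 genes with the most bound promoters, with ties taken by highest signal. In these genes the strongest is 1.88 to 12.4 times the weakest.

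Kinds of genes were counted over 39 lists made by symbol and role. No test between lists was made, and the share over all coding genes, 13%, is the background. Genes whose promoters are divergent cannot be members there, so a low share is not a lack of binding. Of the 10580 genes with a one-strand promoter, 16.9% had a member. On that base the order differs: cytoplasmic ribosomal protein genes had 42 of 57 (73.7%) and Notch pathway genes 11 of 22 (50%). Mitochondrial ribosomal protein genes had 5 of 20 (25%), above the 16.9%, while ion channel genes stayed below it with 1 of 44 (2.27%). In 8 lists the exact 95% interval of the share lay above 13%, in 6 it lay below.

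Ribosomal protein genes of the cytoplasm had 42 of 93 (45.2%, 34.8 to 55.8%) with a member, and 43%, 47.3% and 37.6% in replicates 1, 2 and 3. The strongest were RpL23A, at -97 bp with a signal of 1206 and ranks 415, 364 and 248 in replicates 1, 2 and 3, then RpL30 at -7 bp with 1110 and RpLP2 at -222 bp with 862. Their median signal of 337 was near that of all member genes, 316. A further 35 of the 93 had an IDR summit at a divergent promoter only. Mitochondrial ribosomal protein genes had 5 of 73 members (6.85%), of which mRpL41 had a signal of 2952 at -131 bp, and 31 more had a divergent summit only. Translation factors had 16 of 54 (29.6%, 18 to 43.6%), led by eIF6 at 1226, eEF1gamma at 915 and eEF2 at 659. Heat shock proteins and their regulator had 9 of 28 (32.1%, 15.9 to 52.4%). Of these Hsp27, a small chaperone, had 1433 at -144 bp, and Hsp83, the fly Hsp90, had 1009 at -109 bp.

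Of the 6 signalling lists, Notch, EGF and FGF, and Wnt had intervals above 13%, and those of Dpp and activin, JAK/STAT and Hedgehog (1 of 11, 9.09%, 0.23 to 41.3%) included it. Notch pathway genes had 11 of 23 (47.8%, 26.8 to 69.4%), and 34.8%, 47.8% and 43.5% in replicates 1, 2 and 3. The strongest was E(spl)m7-HLH, a target gene of the pathway that encodes a repressor, with a signal of 1621 at -392 bp and ranks 205, 155 and 204. numb, which encodes an inhibitor of Notch, had 1077 at -144 bp, and E(spl)m3-HLH, from the same gene complex as the first, had 958 at -416 bp. EGF and FGF receptor pathways had 10 of 24 (41.7%, 22.1 to 63.4%), among them stumps, the adaptor of the FGF receptors, at 1058, spi, the EGF ligand spitz, at 881 and aos, a secreted inhibitor of that receptor, at 815. The Wnt pathway had 9 of 24 (37.5%, 18.8 to 59.4%), with 20.8%, 54.2% and 41.7% in replicates 1, 2 and 3. It was led by sgg, the kinase GSK3, at 1479, the ligand Wnt5 at 1414 and the inhibitor nkd at 691. Outside signalling, septate junction genes, which seal epithelia, had 7 of 16 (43.8%, 19.8 to 70.1%), led by nrv1, a sodium pump subunit, at 941, Atpalpha, its catalytic subunit, at 489 and Gli, gliotactin, at 398. Polycomb and trithorax genes had 9 of 26 (34.6%, 17.2 to 55.7%), of which ph-p, of the Polycomb group, had 3194 at -459 bp with ranks 30, 49 and 59, kis had 327 and Trl, which encodes the GAGA factor, 310.

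The counts were smaller when each replicate was left out in turn and peaks had to be matched in both other lists, which left 6.47 to 8.24% of all coding genes. Cytoplasmic ribosomal protein genes then had members in 22.6 to 30.1%, Notch pathway genes in 26.1 to 39.1%, EGF and FGF receptor pathway genes in 25 to 29.2%, septate junction genes in 25 to 31.2%, heat shock proteins in 17.9 to 25%, Polycomb and trithorax genes in 15.4 to 23.1% and Wnt pathway genes in 12.5 to 25%. Translation factors had 7.41% without replicate 1, below the 8.24% of all coding genes there, and 11.1% and 9.26% without replicates 2 and 3, against 6.63% and 6.47%.

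Other lists held strong members while the interval of their share included 13%. In the Dpp and activin pathway 6 of 19 genes were members (31.6%, 12.6 to 56.6%), with shn at 21140, Dad at 276 and cv-2 at 263. In the JAK/STAT pathway 3 of 12 were (25%, 5.49 to 57.2%), Socs16D at 16576, Stat92E at 802 and Socs36E at 268. Muscle genes had 5 of 19 (26.3%, 9.15 to 51.2%), with Tm1, a tropomyosin gene, at 3469, tin, the heart factor tinman, at 982 and sls, a titin-like gene, at 968. Among motors and cytoskeleton, 8 of 43 (18.6%), Act5C, a cytoplasmic actin gene, had 3077 at -20 bp. Of the neural factors, 3 of 19 (15.8%), elav, the pan-neuronal RNA-binding protein, had 1861 at -269 bp. Cell adhesion genes had 11 of 75 (14.7%), with Con at 9752 and DIP-eta at 2310. In the stronger 50% of the IDR peaks, which left 6.7% of all coding genes, the Dpp and activin share was 5.26% and the cell adhesion share 6.67%, and with a 250 bp window (12.8% of all genes) the neural share was 5.26% and the cell adhesion share 9.33%, all below the background.

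Genes of chemosensation, cuticle and digestion, and those of ion channels and cytochrome P450 enzymes, were rarely members. There were 0 of 180 chemoreceptor genes, which allows a share of up to 1.67%, 0 of 130 cuticle protein genes (up to 2.31%) and 0 of 32 digestive protease genes (up to 9.38%). These limits, like that for Hox genes, are 3 counts of the total, and the exact 95% intervals reach 2.03%, 2.8% and 10.9%. Odorant binding proteins had 1 of 53, ion channels 1 of 47 (2.13%, 0.0539 to 11.3%) and cytochrome P450 genes 4 of 83 (4.82%, 1.33 to 11.9%). Glutathione transferases, the other list of detoxification genes, had 3 of 35 (8.57%, 1.8 to 23.1%), an interval that includes 13%. Most of these genes have a one-strand promoter, 165 of the chemoreceptors and 44 of the ion channels. Among patterning genes, 0 of 8 Hox genes (up to 37.5%, exact interval to 36.9%) and 2 of 20 segmentation genes (10%, 1.23 to 31.7%) were members. Spliceosome genes had 1 of 36 and tRNA synthetases 1 of 18, but 14 and 10 of these had an IDR summit at a divergent promoter only. With a 250 bp window, tRNA synthetases had members in 22.2%, above the 12.8% of all genes.

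**Figure D5:**
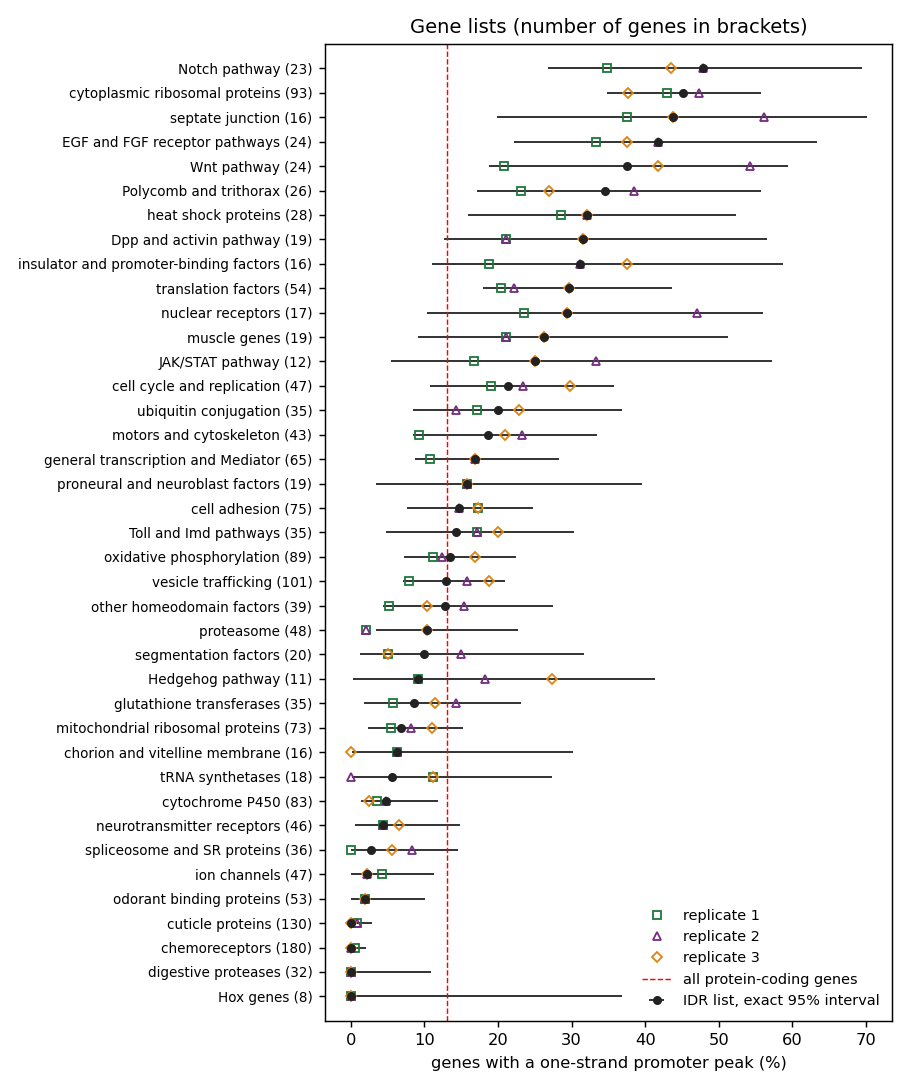
Share of the genes of each list with a one-strand promoter peak in the IDR list (filled points, with exact 95% intervals) and in the strongest 6458 peaks of each replicate list (open symbols), beside the 13% of all protein-coding genes (dashed line). Notch pathway genes, at 47.8%, are at the top, and Hox, digestive protease, chemoreceptor and cuticle protein genes have none in the IDR list. Shares are of all genes of a list, with or without a one-strand promoter. Among genes that have one, cytoplasmic ribosomal protein genes, at 73.7%, are above Notch pathway genes, at 50%.

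Short words of known promoter elements were counted on both strands within 50 bp of the summit. The DRE, TATCGATA, was in 96 of 2032 windows (4.72%), in 5.09% of divergent promoter peaks, in 0.149% of peaks away from coding starts and in 1.45% of one-strand promoters without an IDR summit. The Ohler motif 1 core, GGTCACAC, was in 67 (3.3%), against 3.02%, 0.178% and 0.461%. Promoters without a summit were read in a fixed window, centred at -101 bp from the start. Within 100 bp of member summits, the Ohler core lay at a median of -12 bp from the start. The shorter DRE core, ATCGATA, lay at -47.5 bp. How far this placing changes the counts at promoters without a summit was not tested. The DRE and the Ohler core were rare in the strongest quintile (1.48% and 0.985%) and more frequent in the weakest (5.42% and 3.94%). Peaks with the Ohler core had a median offset of -22 bp and a median signal of 265, and those without it -106 bp and 305. For the shorter DRE core, ATCGATA, the medians were -54 bp and 277 with it, and -113 bp and 307 without. The examples printed for eEF1gamma and RpL30 have summits at -36 and -7 bp. As the strongest peaks that hold each element, they have signals of 915 and 1110, above these medians.

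Other elements differed less or in the other direction. GAGAG was in 10.6% of member windows and 17.2% of promoters without a summit. TGTTTAC, a forkhead factor word, was in 4.38% and 2.44%. TATAAA was in 18.9% of member windows, 22.7% of the strongest and 16.3% of the weakest quintile, and 14.5% of windows at promoters without a summit. At its core promoter position, from 40 to 15 bp upstream of the start on the gene's strand, it went the other way and was found at 3.05% of the start sites nearest to members (2.35 to 3.89%) and at 8.85% of those without a summit. The initiator word TCAGT at the start was at 13.9% and 12.8%. GC content within 50 bp of the summit was 37.1% ± 10.7 (SD over 2032 peaks), 32.8% in the strongest and 39.9% in the weakest quintile, and 40.4% at promoters without a summit. It moves with strength, and its part in the frequencies of the words was not tested. Members on tandem genes, whose upstream neighbour points the same way, were 52.9% of the promoters with a member and 47.4% of those without a summit, and 12.4% against 18.2% lay inside another coding gene.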

How the data were processed

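ChIP-seq peak lists of 3 biological replicates, a pooled list and an IDR list were used. Each deposited peak carries a signal, a value of at least 0 from the authors' peak caller, and a summit. Positions are on dm6 and all lists were called against the same control, per the README listings of derived files. The sources used here name no peak caller or aligner. Read depth is unknown. All 4 unthresholded lists hold 30000 peaks, and the 6458 IDR peaks are all in the pooled list.

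Coding start sites came from Ensembl release 115 and sequence from the RefSeq copy of release 6. Replicate lists were cut at their strongest 6458 peaks, and matches needed 50% overlap of both peaks. A summit near several promoters of a gene was counted at the nearest. Intervals are exact 95% binomial and cover counting error only, since peaks and genes are not replicates. Tests were exact sign-flip permutations over replicates, two-sided (Python 3.11.15, scipy 1.17.1). Scripts were tested on simulated data.

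Members, lists and words were chosen with earlier results of these data known. Genes named are those of the 20 strongest members and the 10 with the most bound promoters, with ties taken by highest signal. Others are the 3 strongest of a list with at least 3, and 3 on each side of the 500 bp limit. Not all of these are named, and 1 of the 20 is not reported here. CG15601 and counts of 0 to 2 were added. Alternatives covered windows, annotation, strand rule, repeated coordinates, strength, promoter spacing, matching and replicates left out.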

Additional observations from a re-analysis of the deposited data

How the results depend on the processing

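With a 1000 bp window the share at one-strand promoters was 35.5% and the upstream share 72.9%. In the stronger 50% of the IDR peaks, the median offset was -144 bp, the upstream share 83.2%, the share found in all replicate lists 63.1%, the share of genes bound at several promoters 10.2% and that at the most upstream promoter 45.3%. The median signal relative to divergent promoter peaks, 0.891 in all IDR peaks, was 0.801 with a 250 bp window and passed 1 in that stronger part, at 1.03. With a 250 bp window, 13% of genes were bound at several promoters and 56.8% of the others at the most upstream one, which was 53.6% where promoters had to be over 1000 bp apart. The share in all replicate lists was 69.4% over whole lists and 59.9% by 1 bp of overlap. Summits of the replicate 1 list gave -150 bp and 83.1% upstream.

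Keeping only peaks matched in both other lists, with each replicate left out in turn, gave a member share of 30 to 34.5%, a median offset of -138 to -102 bp, an upstream share of 78.7 to 84%, a signal ratio of 0.956 to 1.04, 10.9 to 12.9% of genes bound at several promoters and 43.8 to 46.8% at the most upstream. This keeps strong peaks. No paired analysis was possible because the series has 1 group, so no samples pair across groups, and the peak classes were compared within each replicate instead. The difference in upstream share from divergent promoter peaks, -3.45 points, was -8.15 with all peaks of each replicate list. Of the other alternatives for these results, which number 50 with that one, the values without a test stayed within 1 SD of the replicate lists, the counts within 1.5 times and the tested differences on the same side of 0. These counts are of lists or words above background. The shares of single lists and words moved by more than 1 SD in 190 alternatives and stayed in 192. With a 250 bp window, cytoplasmic ribosomal protein genes went from 45.2% to 62.4% and Notch pathway genes from 47.8% to 34.8%. Depth is unknown, so differences among weak peaks cannot be tied to coverage.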
